A study of Mus musculus with 8 samples.

Results

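Integrins and laminins, the adhesion receptors of cells and a family of basement membrane chains that some of them bind, were followed in mouse kidney RNA. The members were the entries of the deposited gene table whose symbol begins with Itga or Itgb, leaving out the binding proteins with bp in their name, together with the laminin alpha, beta and gamma chain genes. Described here are 39 of the 34745 entries, 29 for integrins and 10 for laminins, under 38 distinct symbols because Itgam had 2 entries. The libraries came from renal tissue of WT mice at day 14 and fell into 3 groups, with 3 libraries labelled uIRI+MSC, 3 labelled uIRI and 2 labelled sham. The series describes the first of these groups as receiving transplanted MSCs, and it concerns renal senescence, copper flux and respiration in stem cell therapy. The labels do not spell out uIRI, and they give neither the strain, sex and age of the mice nor the source, dose and timing of the MSCs. Nothing states that each library was another animal, and the p-values therefore measure the spread between these samples alone, which may be technical.

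Each integrin is a pair of 1 alpha and 1 beta subunit, and the pair decides the ligand: leukocyte integrins bind receptors on other cells, whereas others bind collagens, laminins, or the RGD sequence of fibronectin, vitronectin and latent TGF-beta. Laminins are trimers of an alpha, a beta and a gamma chain that assemble into the sheet under epithelia and around vessels. In the kidney, integrins containing Itgb1 anchor tubule cells and podocytes to this sheet, and the tubule and glomerular basement membranes differ in their laminin chains.

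The promoters of 3 members are shown because Itgam and Itgax, neighbours on chromosome 7, had the highest changes against sham among the leukocyte integrins with counts in every group, and Itgb8 had the lowest estimate of any member in uIRI against sham. Each is the 250 bases before the RefSeq start of the gene in GRCm38.p6, 5′ to 3′ on the gene's strand. They lie at chr7:128062390-128062639 on the plus strand for Itgam, at chr7:128129300-128129549 on the plus strand for Itgax and at chr12:119238277-119238526 on the minus strand for Itgb8. The Itgb8 window is inside the gene's span in the deposited table, chr12:119158022-119238802, so it does not lie before the 5′ end given there. Capitals mark every match, on either strand, to GAGGAA, the core bound by the myeloid factor PU.1, or to TGANTCA, the site of AP-1, which do not overlap here.
Itgam: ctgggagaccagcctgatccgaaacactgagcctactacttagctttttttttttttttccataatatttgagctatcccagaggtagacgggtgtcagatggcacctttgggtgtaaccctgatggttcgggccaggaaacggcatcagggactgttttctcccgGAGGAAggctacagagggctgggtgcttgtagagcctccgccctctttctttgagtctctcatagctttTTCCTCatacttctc
Itgax: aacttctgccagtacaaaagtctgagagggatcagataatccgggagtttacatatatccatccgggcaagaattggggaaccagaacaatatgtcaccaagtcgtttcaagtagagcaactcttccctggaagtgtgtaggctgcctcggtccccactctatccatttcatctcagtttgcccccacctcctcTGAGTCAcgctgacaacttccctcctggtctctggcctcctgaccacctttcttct
Itgb8: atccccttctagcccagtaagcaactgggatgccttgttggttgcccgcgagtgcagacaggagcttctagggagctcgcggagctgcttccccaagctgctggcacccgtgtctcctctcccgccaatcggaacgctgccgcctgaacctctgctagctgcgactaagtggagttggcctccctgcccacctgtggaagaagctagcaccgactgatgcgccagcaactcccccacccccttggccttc
GAGGAA was found in 23.3% of the 32851 windows of this length in the RefSeq table and in 14 of the 28 windows of members, which belonged to 25 genes. Among leukocyte integrins the windows of Itgam and Itgb2l held it, and those of Itgax, Itga4 and Itgb7 did not. Most member windows with it belonged to other classes, among them Itgb1, Itga5, Lama5 and Lamb1. TGANTCA was found in 6.75% of all windows and in 1 of the 28 member windows, that of Itgax. The Itgam window held 2 GAGGAA matches and no TGANTCA, the Itgax window 1 TGANTCA and no GAGGAA, and the Itgb8 window neither. A match is a run of letters and was not tested as a binding site.

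Sequencing depth was 11592986 to 24300112 counts per library. Genes of the kidney were present in every library: the 4 podocyte markers summed to 221, 231 and 227 CPM in the uIRI+MSC libraries, 282, 228 and 257 CPM in the uIRI libraries and 176 and 276 CPM in the sham libraries, where CPM is the count relative to library size after TMM scaling. Of the 39 entries 38 passed the filter on low counts and were tested. The remaining one, Itgb2l, had 3 counts in uIRI library 3 and 0 in the other 7 libraries.

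Most integrin and laminin genes had higher levels in uIRI-treated kidneys than in sham. In uIRI against sham, 26 of the 38 tested members rose, 4 fell and 8 did not pass an adjusted p of 0.05 in edgeR's quasi-likelihood test, while among all 16576 tested genes 54.6% passed, 28.3% higher and 26.3% lower. The median log2 change was 1.38 over the members and 0.06 over all tested genes. By class, 8 of 9 tested leukocyte entries, 2 of 4 epithelial, 3 of 7 RGD-binding, 3 of 4 collagen-binding and 3 of 4 shared or other integrins rose, as did 7 of the 10 laminin chains. The 4 that fell were Itgb8, Itga2b, Itgb6 and Lama3, the last at 0.07 and Itgb6 at -0.06 when libraries were scaled by their size alone. That scaling moved the median log2 change of all genes to 0.73, and under it 32 members were called higher and 2 lower, against 9044 and 1989 of all genes. In uIRI+MSC against sham, which uses the same sham libraries, 23 members rose and 1 fell, where 42.4% of all genes passed, 22.1% higher and 20.3% lower.

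**Figure D1:**
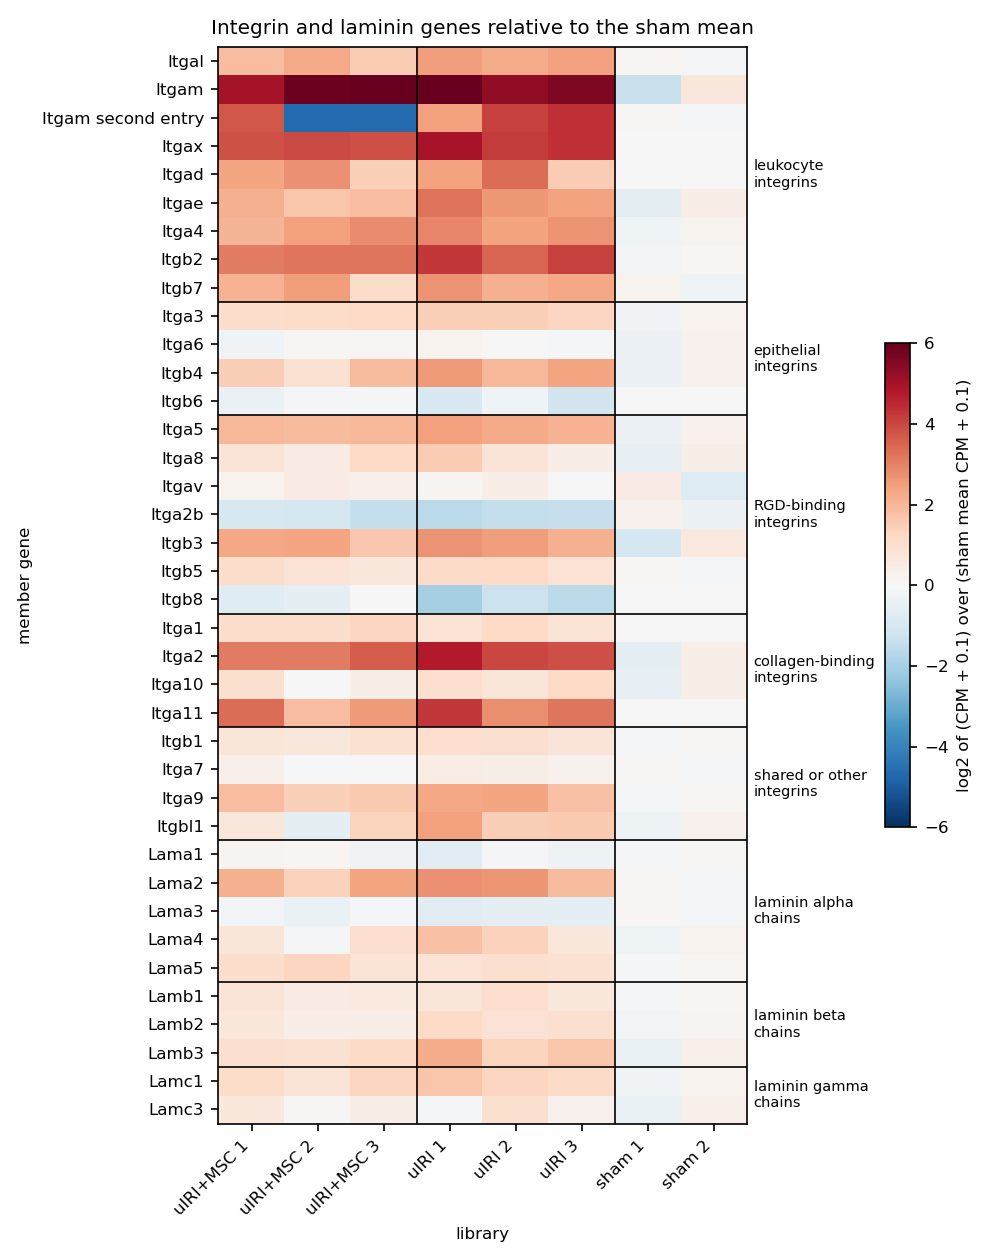
Rows are the 38 tested members by class and columns the 8 libraries; colour is the log2 ratio of CPM + 0.1 in a library to sham mean CPM + 0.1. The leukocyte block is red in uIRI+MSC and uIRI except for the second Itgam entry, which has no counts in uIRI+MSC 2 and 3 and is blue there, and Itgb8 is bluer in the uIRI libraries than in the others.

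Among leukocyte integrins, 8 of the 9 tested entries rose in uIRI against sham. Itgb2, the beta subunit shared by the integrins of myeloid cells and lymphocytes, had 78.6, 84.6 and 85.8 CPM in the uIRI+MSC libraries, 177, 106 and 158 CPM in the uIRI libraries and 8.26 and 10.1 CPM in the sham libraries. All 6 uIRI-treated libraries lay far above both sham libraries, with a log2 change of 3.99 ± 0.26 (SE) in uIRI against sham (edgeR adjusted p = 2.77e-05) and 3.17 ± 0.25 in uIRI+MSC against sham (edgeR adjusted p = 8.44e-05). Itgax, the CD11c subunit of dendritic cells and macrophages, had 72.2, 80.6 and 75.7 CPM with uIRI+MSC, 159, 94.8 and 106 CPM with uIRI and 5.15 and 4.88 CPM in sham. The 3 groups did not overlap, and its log2 change in uIRI against sham was 4.58 ± 0.27 (edgeR adjusted p = 2.41e-05). Itgal, the alpha subunit of the lymphocyte receptor for Icam1, had 23.1, 30.5 and 18.1 CPM with uIRI+MSC, 36.2, 29.8 and 35.1 CPM with uIRI and 6.8 and 5.8 CPM in sham. uIRI+MSC and uIRI were above sham but overlapped each other, and the log2 change in uIRI against sham was 2.42 ± 0.25 (edgeR adjusted p = 0.000115).

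Itgam, the CD11b subunit of macrophages and neutrophils, needed both of its entries. The second one, ENSMUSG00000108596, carries the name Gm49368 in GENCODE vM21 and spans chr7:128062683-128128160, which covers nearly the whole of Itgam at chr7:128062640-128118491 on the same strand, and ends before Itgax starts. It held 51.7%, 0% and 0% of the combined counts in uIRI+MSC libraries 1 to 3, 16.2%, 52.7% and 52.9% in uIRI libraries 1 to 3, and 89.7% and 61.0% in sham libraries 1 and 2. The share of the second entry was higher in both sham libraries than in the other 6 and spread widely among those. The level of the gene is therefore given by the sum. Summed, the entries had 64.8, 57.1 and 64.6 CPM with uIRI+MSC, 84.2, 82.0 and 100 CPM with uIRI and 2.82 and 3.78 CPM in sham. The 3 groups did not overlap, and the log2 change of the sum was 4.75 ± 0.20 in uIRI against sham (edgeR adjusted p = 1.54e-05) and 4.23 ± 0.20 in uIRI+MSC against sham (edgeR adjusted p = 3.28e-05). Taken alone, the first entry gave 5.86 ± 0.61 in uIRI against sham, from 3 and 16 sham counts, and the second gave 3.92 ± 1.93, which did not pass (edgeR adjusted p = 0.117).

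**Figure D2:**
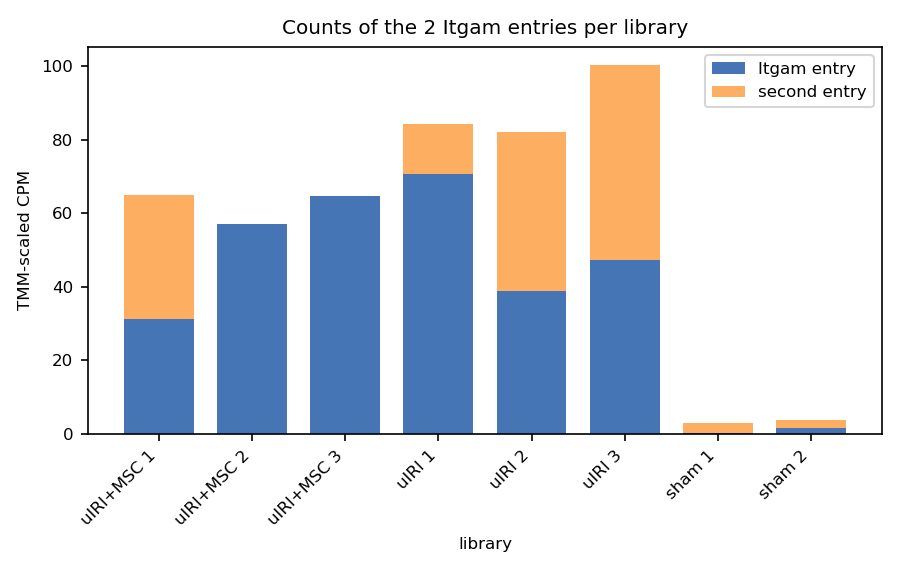
Bars are TMM-scaled CPM of the first (blue) and second (orange) Itgam entry in each library, stacked. The split between the entries varies within every group, while the stacked height separates uIRI+MSC (57.1 to 64.8), uIRI (82.0 to 100) and sham (2.82 and 3.78).

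The partners of Itgb7 and the integrins that home lymphocytes to tissue rose as well. Itgb7 had 18.9, 25.3 and 9.49 CPM with uIRI+MSC, 29.1, 19.7 and 22.1 CPM with uIRI and 5.15 and 3.59 CPM in sham, and its log2 change in uIRI against sham was 2.43 ± 0.43 (edgeR adjusted p = 0.00146). Itga4, which pairs with Itgb7 or Itgb1 to bind Vcam1 and Madcam1, had 32.9, 44.1 and 58.4 CPM with uIRI+MSC, 62.6, 43.6 and 52.6 CPM with uIRI and 6.7 and 9.39 CPM in sham, a log2 change of 2.71 ± 0.30 (edgeR adjusted p = 0.000155). For both genes uIRI+MSC and uIRI lay above sham and overlapped each other. Itgae, the CD103 subunit that binds E-cadherin, had 9.63, 6.93 and 7.81 CPM with uIRI+MSC, 21.0, 13.5 and 11.6 CPM with uIRI and 1.36 and 2.85 CPM in sham. Its 3 groups did not overlap, and the log2 change was 2.86 ± 0.40 in uIRI against sham (edgeR adjusted p = 0.000472). Itgad, the CD11d subunit, had only 10, 8 and 2 counts with uIRI+MSC, 13, 25 and 4 counts with uIRI and 0 in both sham libraries. Against a floor of 3 counts over the sham group it was at least 2.83-fold higher in uIRI+MSC, where it did not pass (edgeR adjusted p = 0.0511), and at least 3.79-fold higher in uIRI (edgeR adjusted p = 0.0258), a call that was lost without either sham library.

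General leukocyte markers moved with these genes. The 4 markers Ptprc, Cd53, Laptm5 and Coro1a summed to 409, 439 and 468 CPM with uIRI+MSC, 644, 536 and 663 CPM with uIRI and 68.7 and 62.2 CPM in sham, all 4 rose in uIRI against sham, and their median log2 change was 3.29. All 5 macrophage, all 5 T cell, all 5 dendritic cell and all 4 tested neutrophil markers rose too. The neutrophil marker Ly6g did not pass the filter on low counts, so its 0 in both sham libraries is not informative. Of the 4 B cell markers only 1 rose, and their median log2 change was 0.76. Among all tested genes 28.3% were higher. With the Itgam entries summed, the 8 tested leukocyte integrins had a median log2 change of 3.43, or 2.79 with Itgad set at its lower bound. In bulk tissue more cells of a type and more RNA per cell cannot be told apart, and the part of leukocyte numbers in these changes was not tested.

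Epithelial integrins split. Itga3, which pairs with Itgb1 to hold podocytes and tubule cells on laminin, had 152, 158 and 165 CPM with uIRI+MSC, 194, 195 and 177 CPM with uIRI and 62.5 and 83.2 CPM in sham. The 3 groups did not overlap, and the log2 change in uIRI against sham was 1.37 ± 0.16 (edgeR adjusted p = 0.00018). Of the podocyte markers 1 of 4 rose, where 28.3% of all tested genes were higher, and their median log2 change was 0.24. The part of podocyte RNA in the change of Itga3 was not tested. Itgb4, the hemidesmosome subunit, had 29.8, 19.7 and 39.2 CPM with uIRI+MSC, 62.5, 42.2 and 54.2 CPM with uIRI and 8.36 and 12.7 CPM in sham. Its groups did not overlap either, and the log2 change was 2.33 ± 0.33 in uIRI against sham (edgeR adjusted p = 0.000522) and 1.49 ± 0.33 in uIRI+MSC against sham (edgeR adjusted p = 0.00684), the second lost without sham library 1 (edgeR adjusted p = 0.0633). Its partner Itga6 had 138, 168 and 165 CPM with uIRI+MSC, 184, 161 and 148 CPM with uIRI and 124 and 192 CPM in sham. The groups overlapped fully, and its log2 change of 0.06 ± 0.20 in uIRI against sham did not pass (edgeR adjusted p = 0.831).

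Levels of urothelial markers varied widely between libraries. Upk1b, Upk2, Upk3a and Krt5 summed to 0.209, 0.286 and 26.6 CPM with uIRI+MSC, 67.9, 14.8 and 32.8 CPM with uIRI and 1.17 and 43.8 CPM in sham. Of these 4 markers 0 passed in any comparison. Itgb4 was highest in uIRI library 1 and in uIRI+MSC library 3, the libraries of their groups with the highest urothelial sums. Among the sham libraries both were higher in library 2. The part of urothelial RNA in the change of Itgb4 was not tested.

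Itgb6 and Itgb8, beta subunits that pair with Itgav to release active TGF-beta from its latent form, fell in uIRI against sham. Itgb8 had 174, 189 and 295 CPM in the uIRI+MSC libraries, 72.0, 119 and 95.0 CPM in the uIRI libraries and 284 and 291 CPM in the sham libraries. The uIRI libraries were below every other library, and the uIRI+MSC group reached the sham level in library 3 only. The log2 change was -1.59 ± 0.27 in uIRI against sham (edgeR adjusted p = 0.00114), and -0.39 ± 0.27 in uIRI+MSC against sham, which did not pass (edgeR adjusted p = 0.265) and was 0.12 by library size alone. Itgb6 had 125, 149 and 148 CPM with uIRI+MSC, 85.7, 135 and 75.7 CPM with uIRI and 167 and 159 CPM in sham. Its uIRI libraries lay below sham but overlapped uIRI+MSC. Its log2 change of -0.72 ± 0.23 in uIRI against sham (edgeR adjusted p = 0.0277) was lost without uIRI library 1 or 3 or either sham library (edgeR adjusted p of 0.0755, 0.0759, 0.132 and 0.0918 in turn), and was -0.06 by library size alone (edgeR adjusted p = 0.82). Proximal tubule markers moved the same way: Lrp2, Slc34a1, Slc5a2 and Slc22a6 summed to 5150, 4170 and 3930 CPM with uIRI+MSC, 779, 2700 and 2220 CPM with uIRI and 13500 and 13700 CPM in sham, and all 4 fell in uIRI. Other tubule markers fell in uIRI against sham as well, 3 of 3 for the thick limb and distal tubule and 2 of 3 for the collecting duct. Among all tested genes 26.3% were lower there. The part of any tubule segment in the change of Itgb6 and Itgb8 was not tested.

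**Figure D3:**
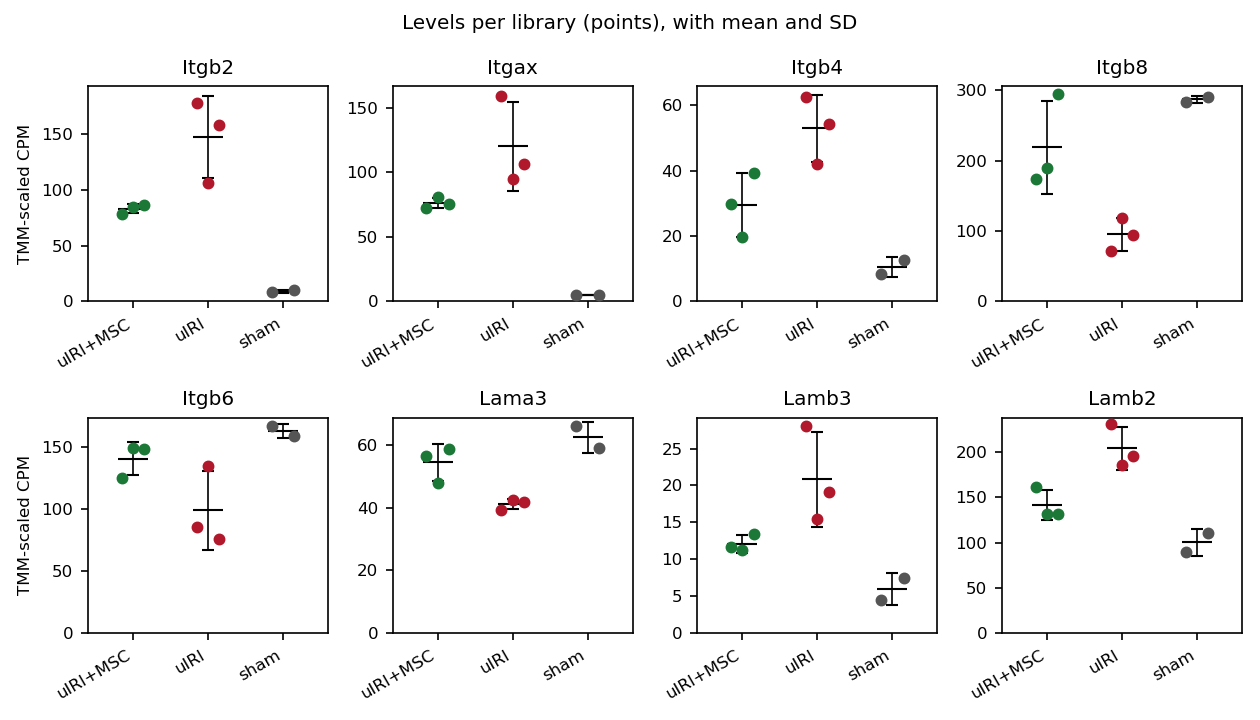
Points are TMM-scaled CPM of 8 members in each library of uIRI+MSC (green), uIRI (red) and sham (grey), and the cross bars are the mean and SD. Itgb2, Itgax, Itgb4, Lamb3 and Lamb2 are highest in uIRI and lowest in sham, while Itgb8 and, on the TMM scale but not by library size alone, Lama3 are lowest in uIRI.

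Of the other RGD-binding integrins 3 rose. Itga5, the fibronectin receptor, had 52.9, 50.1 and 52.9 CPM with uIRI+MSC, 72.6, 64.7 and 56.6 CPM with uIRI and 10.4 and 16.1 CPM in sham, with a log2 change of 2.28 ± 0.21 in uIRI against sham (edgeR adjusted p = 7.19e-05). Itgb3, the vitronectin receptor subunit, had 11.9, 12.6 and 7.39 CPM with uIRI+MSC, 15.6, 13.5 and 10.6 CPM with uIRI and 1.07 and 3.59 CPM in sham, with a log2 change of 2.5 ± 0.47 (edgeR adjusted p = 0.00214). Both genes were higher in every uIRI-treated library than in sham. Itgb5, another partner of Itgav, had 416, 349 and 316 CPM with uIRI+MSC, 437, 450 and 360 CPM with uIRI and 207 and 189 CPM in sham, and its log2 change of 1.07 ± 0.18 also passed (edgeR adjusted p = 0.00115). Itgav itself was 102 to 149 CPM in the 6 uIRI-treated libraries and 148 and 61.1 CPM in the sham libraries, which stood further apart from each other than the groups did, so that leaving out sham 1 gave a log2 change of 0.97 in uIRI against sham (edgeR adjusted p = 0.0153) and leaving out sham 2 gave -0.3 (edgeR adjusted p = 0.292). Itga8, the nephronectin receptor needed for kidney formation in mice, was 26.2 to 41.5 CPM with uIRI+MSC, 24.3 to 52.4 CPM with uIRI and 12.9 and 23.8 CPM in sham and did not pass in uIRI against sham (edgeR adjusted p = 0.0577), though DESeq2 called it higher (adjusted p = 0.025).

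Itga2b, the alpha subunit of the platelet fibrinogen receptor, fell while its partner Itgb3 rose. It had 4.65, 4.36 and 3.44 CPM with uIRI+MSC, 2.96, 3.37 and 3.49 CPM with uIRI and 11.2 and 7.37 CPM in sham, from 41 to 115 counts a library. uIRI+MSC and uIRI were both below sham, with a log2 change of -1.15 ± 0.26 in uIRI+MSC (edgeR adjusted p = 0.00773) and -1.50 ± 0.26 in uIRI (edgeR adjusted p = 0.00134), the first lost without sham library 1 (edgeR adjusted p = 0.0983) and by library size alone (edgeR adjusted p = 0.0686). The platelet markers Gp9, Gp1ba and Gp6 did not pass the filter on low counts. Their 0 in both sham libraries is therefore not informative. Of the other 3 only Pf4 passed, higher in uIRI. The part of platelet RNA in the change of Itga2b was not tested.

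Of the 4 receptors for collagen 3 rose in uIRI against sham. Itga2, which binds fibrillar collagen and also laminin, had 4.86, 4.86 and 7.05 CPM with uIRI+MSC, 15.5, 9.09 and 8.19 CPM with uIRI and 0.291 and 0.645 CPM in sham, the sham values from 3 and 7 counts. The groups did not overlap, and its log2 change of 4.52 ± 0.50 in uIRI against sham (edgeR adjusted p = 0.000153) was second only to that of Itgax among tested integrins outside the Itgam and Itgad entries. Itga11, a fibroblast receptor for collagen, had 2.81, 0.929 and 1.6 CPM with uIRI+MSC, 5.35, 1.87 and 2.54 CPM with uIRI and 0.194 and 0.184 CPM in sham, from 2 counts in each sham library, with a log2 change of 4.06 ± 0.83 (edgeR adjusted p = 0.00322). Itga1, which binds the collagen of basement membranes, had 160, 158 and 187 CPM with uIRI+MSC, 135, 175 and 136 CPM with uIRI and 78.2 and 74.7 CPM in sham, a log2 change of 0.96 ± 0.16 (edgeR adjusted p = 0.00134). Its annotated span overlaps the coding genes Pelo and Gm49395 on the same strand, and how reads in such an overlap were assigned is not given. Itga10, a collagen receptor of cartilage, was 2.93 to 5.82 CPM with uIRI+MSC, 4.95 to 6.88 CPM with uIRI and 2.04 and 3.78 CPM in sham, and its log2 change of 1.02 fell just short in uIRI against sham (edgeR adjusted p = 0.0517). The 4 fibroblast markers Pdgfra, Dcn, Lum and Col1a2 summed to 1550, 815 and 1380 CPM with uIRI+MSC, 3290, 1960 and 1380 CPM with uIRI and 160 and 215 CPM in sham. They were lowest in library 2 of the uIRI+MSC group and library 3 of the uIRI group, where Itga11 was lowest in library 2 of both.

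Itgb1, the commonest beta subunit, had 617, 608 and 710 CPM with uIRI+MSC, 766, 731 and 642 CPM with uIRI and 360 and 391 CPM in sham. Every uIRI-treated library was above sham, with log2 changes of 0.78 ± 0.16 in uIRI+MSC (edgeR adjusted p = 0.00556) and 0.93 ± 0.16 in uIRI (edgeR adjusted p = 0.00159). Itga9, a receptor for tenascin and Vcam1, had 72.9, 55.3 and 60.0 CPM with uIRI+MSC, 103, 104 and 69.0 CPM with uIRI and 19.2 and 21.6 CPM in sham, a log2 change of 2.17 ± 0.23 in uIRI against sham (edgeR adjusted p = 0.00012). Itgbl1, a beta-like protein, had 1.67, 0.643 and 2.69 CPM with uIRI+MSC, 5.89, 2.93 and 3.11 CPM with uIRI and 0.777 and 1.2 CPM in sham, and its log2 change of 2.00 ± 0.62 in uIRI against sham (edgeR adjusted p = 0.0239) was lost without uIRI library 1 or either sham library. Itga7, the laminin receptor of muscle, was 17.0 to 24.5 CPM in all 8 libraries and did not pass (edgeR adjusted p = 0.0949 in uIRI against sham).

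**Figure D4:**
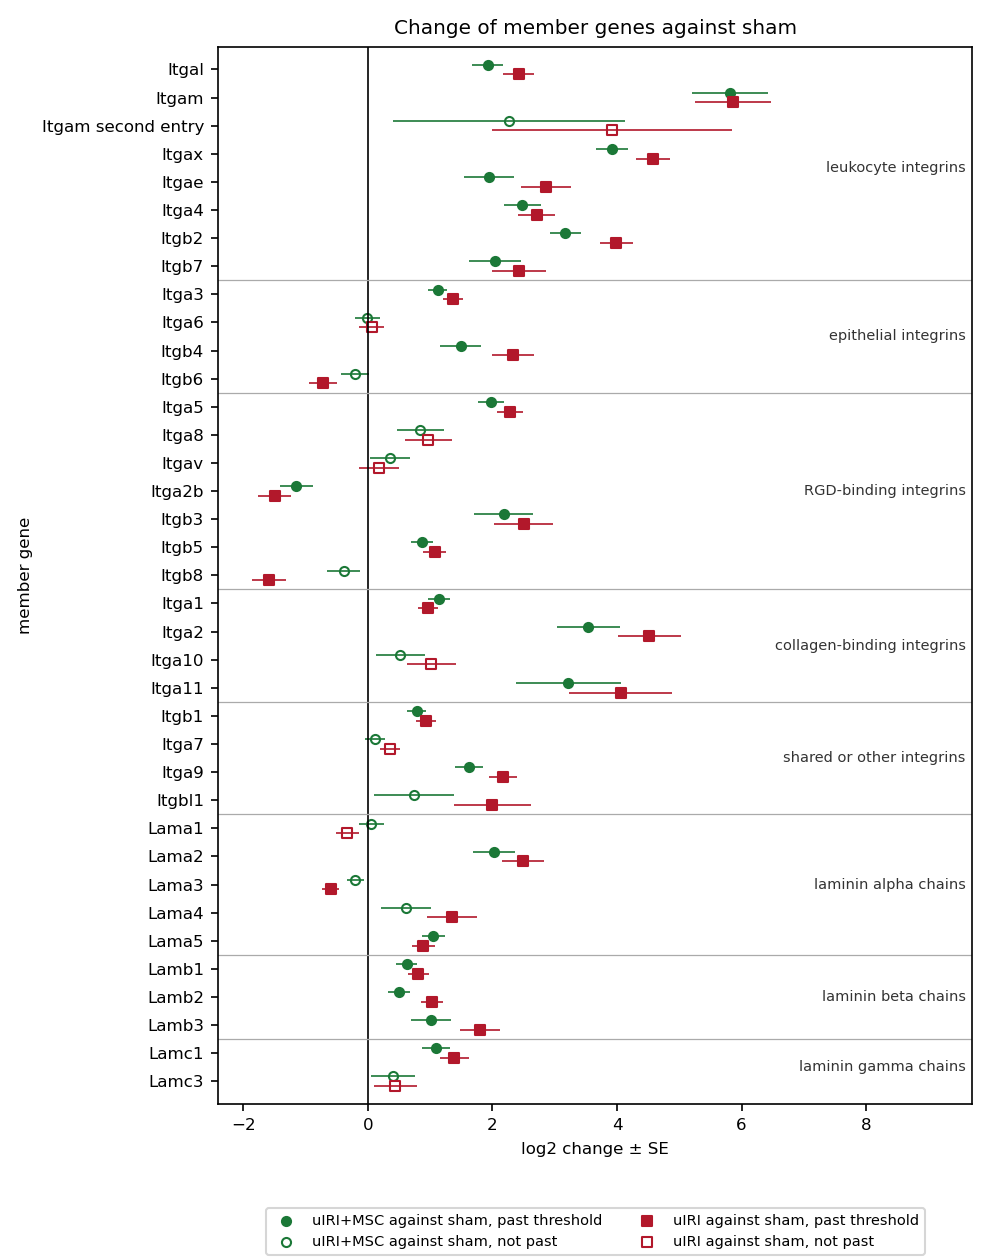
Points are edgeR log2 changes against sham with their SE for 37 tested members by class, uIRI+MSC as green circles and uIRI as red squares, filled where the adjusted p was under 0.05; Itgad, with no count in sham, is left out. Leukocyte and collagen-binding integrins reach the highest values, and Itgb8, Itgb6 and Lama3 are filled on the negative side in uIRI but open in uIRI+MSC. By library size alone, in uIRI against sham, Lama3 turns to 0.07 and Itgb6 is at -0.06, while Itgb8 keeps its call.

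Levels of different subunits were compared per length, in deposited FPKM and within libraries, with no test. Itgb1 was the most abundant beta subunit in every library, with 45.1% ± 2.93 of the summed beta subunit FPKM in uIRI+MSC (SD, n = 3), 44.8% ± 0.387 in uIRI (n = 3) and 43.2% ± 2.13 in sham (n = 2). Itgb5 came next with 31.0% ± 4.53 in uIRI+MSC, 32.0% ± 1.83 in uIRI and 28.0% ± 1.97 in sham. The share of Itgb1 overlapped between all 3 groups. That of Itgb5 was higher in every uIRI library (30.6 to 34.1%) than in either sham library (26.6 and 29.4%), while uIRI+MSC overlapped both. Without gene length, in CPM, Itgb1 held 42.8% ± 1.13 in uIRI+MSC, 45.7% ± 0.764 in uIRI and 35.7% ± 1.6 in sham. There every uIRI-treated library was above sham. Itgb2 held 7.05% ± 0.395 in uIRI+MSC, 11.2% ± 2.87 in uIRI and 1.28% ± 0.174 in sham. Itgb8 held 6.34% ± 1.77 in uIRI+MSC, 2.5% ± 0.672 in uIRI and 13.7% ± 0.109 in sham, and Itgb6 held 6.22% ± 0.687 in uIRI+MSC, 3.91% ± 1.17 in uIRI and 11.8% ± 0.519 in sham. In sham the pair Itgb6 and Itgb8 therefore came after Itgb1 and Itgb5 and far above Itgb2, whereas Itgb2 was above both in every uIRI-treated library except uIRI+MSC library 3, where Itgb8 held 8.35% and Itgb2 7.1%. The remaining subunits Itgb3, Itgb4 and Itgb7 had group means of 0.175% to 3.0%. These shares do not depend on how libraries are scaled to each other. The summed beta subunit FPKM was 268, 262 and 266 in uIRI+MSC, 369, 324 and 295 in uIRI and 108 and 118 in sham, a scale set by library size alone.

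**Figure D5:**
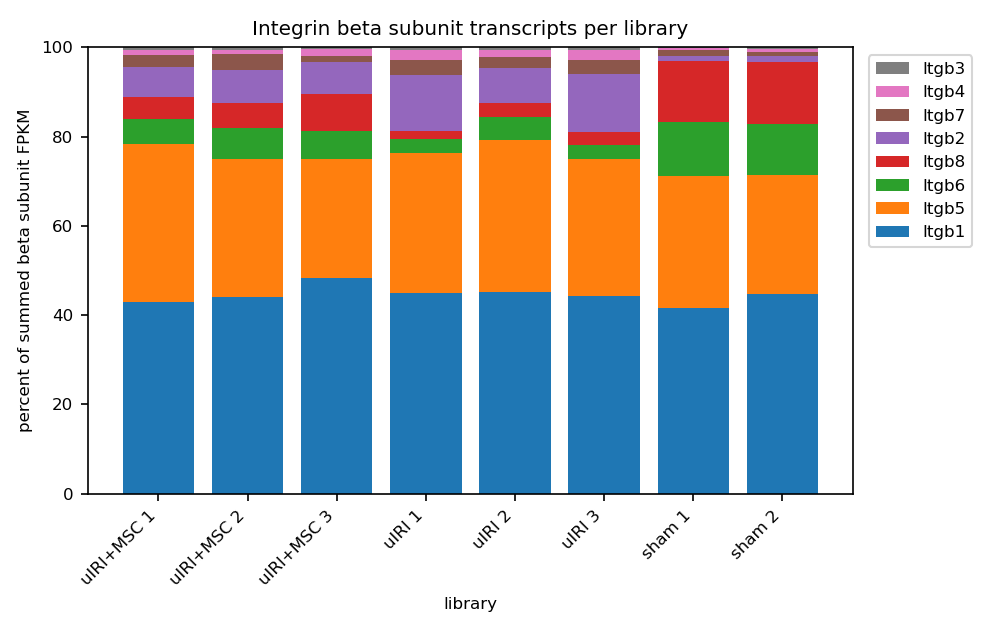
Each bar is 1 library, and each colour the percent of the summed FPKM of the 8 beta subunits Itgb1 to Itgb8 held by 1 subunit. Blue (Itgb1) overlaps between the groups; purple (Itgb2) is wide in uIRI (7.94 to 13.2%) and narrow in sham (1.16 and 1.41%), and red (Itgb8) the reverse.

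Among alpha subunits in the sham libraries, Itga1 had 9.22 and 9.55 FPKM, Itga6 7.11 and 12.0 FPKM and Itga3 6.53 and 9.44 FPKM, while Itgax had 0.685 and 0.704 FPKM. In the uIRI libraries Itga3 had 35.1, 32.6 and 30.2 FPKM, Itga1 27.5, 33.1 and 26.2 FPKM and Itgax 36.6, 20.2 and 23.1 FPKM. Itgax was thus above Itga6 and Itgav within each uIRI library and also within each uIRI+MSC library, where it had 14.3, 16.3 and 14.7 FPKM against 11.8, 14.6 and 13.8 FPKM for Itga6.

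Of the laminins, 7 of 10 rose in uIRI against sham, with a median log2 change of 0.96 over the 10. Lama5, the main alpha chain of adult kidney basement membranes, had 459, 539 and 393 CPM with uIRI+MSC, 397, 431 and 416 CPM with uIRI and 205 and 243 CPM in sham, a log2 change of 0.89 ± 0.18 in uIRI against sham (edgeR adjusted p = 0.00289) and 1.05 ± 0.18 in uIRI+MSC against sham (edgeR adjusted p = 0.00217). Every uIRI-treated library lay above sham, and uIRI+MSC and uIRI overlapped. Lama2, the alpha chain of muscle and mesenchymal basement membranes, had 83.1, 49.7 and 95.9 CPM with uIRI+MSC, 125, 120 and 71.1 CPM with uIRI and 19.5 and 18.0 CPM in sham, and its log2 change of 2.49 ± 0.34 in uIRI against sham was the highest of the laminins (edgeR adjusted p = 0.000447). Lama4, the chain of vessel walls, had 23.0, 12.4 and 27.3 CPM with uIRI+MSC, 46.7, 35.5 and 21.9 CPM with uIRI and 11.3 and 16.0 CPM in sham. Its log2 change of 1.35 ± 0.40 in uIRI against sham passed (edgeR adjusted p = 0.0207) but was lost without uIRI library 1 (edgeR adjusted p = 0.0538) or sham library 1 (edgeR adjusted p = 0.133), and in uIRI+MSC it overlapped sham. Lama2 and Lama4 were, like the fibroblast markers, lowest in library 2 of the uIRI+MSC group and in library 3 of the uIRI group, and the part of fibroblast RNA in their change was not tested.

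Lama3, an epithelial alpha chain, fell while its partner Lamb3 rose, though by library size alone Lama3 was at 0.07. It had 56.7, 48.0 and 59.0 CPM with uIRI+MSC, 39.5, 42.4 and 41.8 CPM with uIRI and 66.1 and 59.1 CPM in sham, and the 3 groups did not overlap. The log2 change in uIRI against sham was -0.60 ± 0.13 (edgeR adjusted p = 0.00453), and the call was lost without sham library 1 (edgeR adjusted p = 0.0563). Lamb3 had 11.6, 11.2 and 13.4 CPM with uIRI+MSC, 28.0, 15.4 and 19.1 CPM with uIRI and 4.47 and 7.46 CPM in sham, a log2 change of 1.80 ± 0.32 in uIRI against sham (edgeR adjusted p = 0.00158), with the genes Hsd11b1 and G0s2 on the other strand within its span and the strand of counting not given. For Lamb3 the 3 groups did not overlap, and sham was lowest. Lamb3 too was highest in uIRI library 1, uIRI+MSC library 3 and sham library 2, like the urothelial sum. Markers of injured tubule cells (Havcr1, Lcn2, Krt20 and Sox9) summed to 1010, 1500 and 862 CPM with uIRI+MSC, 429, 832 and 508 CPM with uIRI and 6.8 and 9.3 CPM in sham. All 4 rose in uIRI against sham, where 28.3% of all tested genes were higher. The part of urothelial or injured tubule RNA in the change of Lamb3 was not tested. Within each library, Lama3 held 9.82% ± 1.75 of the laminin alpha chain FPKM in uIRI+MSC (SD, n = 3), 7.89% ± 0.470 in uIRI (n = 3) and 19.6% ± 2.99 in sham (n = 2). Lama5 held 71.6% ± 5.85 in uIRI+MSC, 69.1% ± 3.45 in uIRI and 60.8% ± 2.74 in sham.

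Lamc1, Lamb1 and Lamb2 had smaller log2 changes than Lamb3. Lamc1, the gamma chain of most laminins, had 169, 136 and 190 CPM with uIRI+MSC, 248, 188 and 174 CPM with uIRI and 66.7 and 88.5 CPM in sham, a log2 change of 1.39 ± 0.23 in uIRI against sham (edgeR adjusted p = 0.00101). Lamb1, the widely used beta chain, had 407, 333 and 366 CPM with uIRI+MSC, 399, 482 and 381 CPM with uIRI and 220 and 260 CPM in sham, a log2 change of 0.81 ± 0.17 (edgeR adjusted p = 0.00431). Lamb2, the beta chain of the mature glomerular basement membrane, had 161, 132 and 132 CPM with uIRI+MSC, 231, 186 and 196 CPM with uIRI and 90.0 and 111 CPM in sham, a log2 change of 1.03 ± 0.17 (edgeR adjusted p = 0.00112). All 3 were above sham in every uIRI-treated library. Lamc1, Lamb1, Lamb2 and Lamb3 also passed in uIRI+MSC against sham, each losing that call without sham library 1, with edgeR adjusted p of 0.0505, 0.133, 0.224 and 0.186 in turn. Lamb1 lost it without uIRI+MSC library 1 too (edgeR adjusted p = 0.0557). The calls of Lamb2 and Lamb3 were weak, lost under 8 and 5 alternatives in turn, the replicate block among them (edgeR adjusted p of 0.0772 and 0.0842 in turn). Lama1, the alpha chain of embryonic and tubular basement membranes, was 32.2 to 42.2 CPM with uIRI+MSC, 23.6 to 35.0 CPM with uIRI and 34.9 and 39.4 CPM in sham, and Lamc3 was 16.7 to 24.4 CPM with uIRI+MSC, 14.5 to 30.7 CPM with uIRI and 11.9 and 19.4 CPM in sham. Neither passed in uIRI against sham (edgeR adjusted p of 0.179 and 0.304 in turn).

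Set against sham, which both comparisons share, the uIRI+MSC kidneys had the highest log2 changes for the leukocyte and collagen receptors, apart from the Itgam and Itgad entries. Itgax was at 3.92 ± 0.26 (edgeR adjusted p = 6.35e-05), Itga2 at 3.54 ± 0.50 (edgeR adjusted p = 0.000912) and Itga11 at 3.22 ± 0.85 (edgeR adjusted p = 0.0156), the last lost without either sham library. By class, 7 of 9 tested leukocyte entries, 2 of 4 epithelial, 3 of 7 RGD-binding, 3 of 4 collagen-binding, 2 of 4 shared or other integrins and 6 of 10 laminin genes rose. Among all tested genes 22.1% were higher and 20.3% lower in this comparison. Itgb6 at -0.21 ± 0.23 (edgeR adjusted p = 0.496) and Lama3 at -0.20 ± 0.13 (edgeR adjusted p = 0.257) did not pass and were at 0.3 and 0.32 by library size alone, and Itgbl1 at 0.74 ± 0.64 and Lama4 at 0.61 ± 0.40 did not pass either (edgeR adjusted p of 0.381 and 0.244 in turn). That a member passed in uIRI but not in uIRI+MSC does not show a difference between those groups, which was tested directly.

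The comparison of uIRI+MSC with uIRI kidneys bears on the MSC transplantation. In edgeR's test 0 of the 38 members passed, and so did 0% of all 16576 tested genes; at an unadjusted p of 0.05, 13 members and 20.6% of all genes passed. limma-voom called 0 members, with 15 at an unadjusted p of 0.05. DESeq2 called 8 members, 1 higher and 7 lower, where it called 5.2% of its 15281 genes higher and 3.73% lower. The 13 members at an unadjusted p of 0.05 were Itgb8, Itgb6 and Lama3, with estimates above 0, and Itgb2, Itgax, Itgal, Itgae, Itga2, Itga9, Itgb4, Itgbl1, Lamb2 and Lamb3, with estimates below 0. Over all members the estimate was below 0 for 30 and above 0 for 8, with a median log2 change of -0.30 against -0.01 over all genes.

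Itgb8 had the largest distance between these groups among the members with estimates above 0. Its 174, 189 and 295 CPM with uIRI+MSC were all above the 72.0, 119 and 95.0 CPM with uIRI, and the log2 change was 1.20 ± 0.24 (edgeR unadjusted p = 0.000926, adjusted p = 0.111; DESeq2 adjusted p = 0.000779). Lama3 did not overlap between these groups either, at 0.41 ± 0.12 (edgeR adjusted p = 0.129). These were the 2 members with every uIRI+MSC library higher, a pattern of 14.1% of all tested genes. The summed proximal tubule markers were also higher in each uIRI+MSC library than in each uIRI library, with 0 of the 4 passing in edgeR. So were the summed injured tubule markers, at 1010, 1500 and 862 CPM in uIRI+MSC and 429, 832 and 508 CPM in uIRI. Of these 4 markers 3 had estimates above 0 and 1 below, and 0 passed. In uIRI+MSC against uIRI the median log2 change was -0.49 for thick limb and distal tubule markers and 0.33 for collecting duct markers. The part of any tubule segment or of injured tubule cells in these differences was not tested.

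Every uIRI+MSC library was lower than every uIRI library for 10 members, a pattern of 12.7% of all tested genes. These were Itgb2, Itgax, Itgae, Itga3, Itgb4, Itga5, Itga2, Itgbl1, Lamb2 and Lamb3. Itgb2, with 78.6 to 85.8 CPM in uIRI+MSC and 106 to 177 CPM in uIRI, had a log2 change of -0.82 ± 0.19 (edgeR adjusted p = 0.111; DESeq2 adjusted p = 0.0042). Itgax had -0.66 ± 0.19 (edgeR adjusted p = 0.127; DESeq2 adjusted p = 0.0318), and the summed Itgam entries had -0.51 ± 0.13 (edgeR adjusted p = 0.121). Among epithelial genes Itgb4 had -0.84 ± 0.27 (edgeR adjusted p = 0.142; DESeq2 adjusted p = 0.0367) and Lamb3 -0.79 ± 0.26 (edgeR adjusted p = 0.152; DESeq2 adjusted p = 0.0484). The urothelial markers summed to 0.209, 0.286 and 26.6 CPM in uIRI+MSC and 67.9, 14.8 and 32.8 CPM in uIRI. The part of urothelial RNA in the estimates of Itgb4 and Lamb3 was not tested. Itga2, Itgae and Lamb2 complete the DESeq2 calls, with adjusted p of 0.0426, 0.042 and 0.0184 in turn. The summed macrophage markers were 927, 788 and 857 CPM in uIRI+MSC and 1610, 1250 and 1800 CPM in uIRI, and the part of macrophage numbers in the estimates of Itgb2, Itgax and Itgam was not tested.

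Genes that work with these receptors moved in uIRI against sham as follows. Of 30 adaptors and kinases at integrin tails, 10 rose, 6 fell and 14 missed the threshold. That share of calls is near the 54.6% of all tested genes (28.3% higher, 26.3% lower). The median log2 change of the list was 0.15. The 4 with the smallest p were Apbb1ip, which recruits talin in leukocytes, at 3.86 ± 0.20 (edgeR adjusted p = 2.34e-05), Fermt3, the kindlin of blood cells, at 3.31 ± 0.21 (edgeR adjusted p = 2.77e-05), the actin crosslinker Actn1 at 2.76 ± 0.19 (edgeR adjusted p = 2.95e-05) and Parvg, the parvin of blood cells, at 2.83 ± 0.21 (edgeR adjusted p = 3.39e-05). Fermt3 had 39.4, 39.2 and 30.2 CPM with uIRI+MSC, 60.7, 50.9 and 70.0 CPM with uIRI and 6.22 and 5.99 CPM in sham, which ordered the groups as Itgb2 did.

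Of 10 receptors on other cells that integrins bind, 9 were tested, 5 rose and 0 fell. Among all tested genes 54.6% passed, 28.3% higher and 26.3% lower. Vcam1, the ligand of Itga4, had 677, 1050 and 633 CPM with uIRI+MSC, 366, 505 and 441 CPM with uIRI and 15.3 and 14.2 CPM in sham, a log2 change of 4.89 ± 0.31 in uIRI against sham (edgeR adjusted p = 2.77e-05). Icam1, the ligand of Itgal and Itgam with Itgb2, had 165, 190 and 129 CPM with uIRI+MSC, 136, 135 and 127 CPM with uIRI and 25.9 and 33.6 CPM in sham, at 2.16 ± 0.20 (edgeR adjusted p = 7.95e-05). Vcam1 was higher in every uIRI+MSC library than in every uIRI library, without passing there. Thy1, a surface protein that leukocyte integrins bind, at 4.12 ± 0.38 (edgeR adjusted p = 7.55e-05) and the junction protein Jam2 at 1.27 ± 0.23 (edgeR adjusted p = 0.00166) rose too.

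Matrix ligands rose in 10 of 12 cases and fell in 0, where 28.3% of all tested genes were higher and 26.3% lower. Fn1, fibronectin and the ligand of Itga5, had 923, 486 and 919 CPM with uIRI+MSC, 1630, 1190 and 788 CPM with uIRI and 36.7 and 45.1 CPM in sham, a log2 change of 4.88 ± 0.45 in uIRI against sham (edgeR adjusted p = 7.54e-05). The microfibril protein Fbn1 at 3.79 ± 0.37 (edgeR adjusted p = 9.02e-05), Mfge8, which bridges dying cells to integrins with Itgav, at 1.59 ± 0.17 and Col3a1 at 4.54 ± 0.49 (edgeR adjusted p = 0.00014 for each), the last a fibrillar collagen, followed. Of 19 basement membrane partners of laminins 13 rose and 4 fell, against the same shares of all genes. Those that fell were Col4a3 at -1.46 ± 0.20 (edgeR adjusted p = 0.000393), Col4a4 at -1.23 ± 0.17 (edgeR adjusted p = 0.00041), Ntn4 at -1.15 ± 0.17 (edgeR adjusted p = 0.000651) and Dst at -0.66 ± 0.20 (edgeR adjusted p = 0.0227). The risers with the smallest p follow. Plec, which ties Itgb4 to keratin, was at 1.53 ± 0.14 (edgeR adjusted p = 6.74e-05), Nid1, which links laminin to collagen, at 2.64 ± 0.24 (edgeR adjusted p = 7.24e-05), the proteoglycan Agrn at 1.39 ± 0.16 (edgeR adjusted p = 0.000218) and Col18a1 at 1.87 ± 0.24 (edgeR adjusted p = 0.000328).

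All 6 genes of latent TGF-beta and its holders rose in uIRI against sham, where 28.3% of all tested genes were higher. Of the beta subunits, Itgb8 and, though not by library size alone, Itgb6, which activate it, fell there. Itgb5 and Itgb3, of the RGD-binding class, rose, at 1.07 ± 0.18 and 2.5 ± 0.47 in turn. Tgfb1 had 99.0, 99.9 and 111 CPM with uIRI+MSC, 118, 128 and 106 CPM with uIRI and 15.9 and 22.3 CPM in sham, a log2 change of 2.61 ± 0.19 in uIRI against sham (edgeR adjusted p = 3.1e-05). Nrros, which holds latent TGF-beta on macrophages and microglia, was at 3.07 ± 0.18 (edgeR adjusted p = 2.41e-05), Lrrc32, its holder on regulatory T cells and platelets, at 1.46 ± 0.16 (edgeR adjusted p = 0.000142) and Tgfb3 at 2.65 ± 0.32 (edgeR adjusted p = 0.000245). No gene of these 5 lists passed in uIRI+MSC against uIRI in edgeR's test.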

How the data were processed

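RNA of 8 mouse kidney libraries was analysed from 1 deposited gene table on GRCm38. Per the file headers, the authors gave each gene a raw read count and an FPKM value, the count scaled by gene length and depth. Roles aside, the submitters' processing notes list edgeR 3.2.0, StringTie 1.3.3b, HISAT2 2.0.4, Bowtie2 2.2.6, FastQC 0.10.1 and SAMtools 1.9, and the labels' protocols describe mRNA isolated from total RNA. The handling of strand and of multiply mapped reads is not given in the sources. Depth was 11592986 to 24300112 counts a library.

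Counts were tested with edgeR 4.0.16 (R 4.3.3; filterByExpr with a minimum count of 10, TMM, glmQLFit with legacy=TRUE, 5 residual degrees of freedom) in 1 fit of all libraries, and p-values were adjusted over 16576 genes by Benjamini and Hochberg at 0.05. The fit was tested on simulated data. FPKM served for levels and shares between genes. DESeq2 1.42.0, limma-voom (limma 3.58.1), other scalings and filters, left-out libraries and a replicate block were alternatives, and Python 3.11.15 with matplotlib 3.10.9 drew the figures. Loci and overlaps are from GENCODE vM21, promoters from RefSeq. The members, classes and lists were chosen with earlier results of these data known. One entry that the rule also selects is not reported here and is in none of the member counts. Every other member was to be accounted for, and of each pathway list the 4 genes with the smallest p in uIRI against sham and up to 4 past the threshold in uIRI+MSC against uIRI were to be named. The 2 Itgam entries were summed after their values were seen. Libraries with the same number in different groups did not deviate together (correlations of deviations -0.21 to 0.11), so the numbers were not taken as pairs.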

Additional observations from a re-analysis of the deposited data

How the results depend on the processing

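In uIRI against sham, 25 of the 30 members called kept their call and direction under every alternative tried, and Itgad, Itgb6, Itgbl1, Lama3 and Lama4 lost it under at least 1. In uIRI+MSC against sham 17 of 24 did, and Itgb4, Itga2b, Itga11, Lamb1, Lamb2, Lamb3 and Lamc1 lost it under at least 1. In uIRI+MSC against uIRI, DESeq2 called 8 members and 1364 of all genes where edgeR called 0, and leaving out 1 library at a time gave 0 to 8 genes, the 8 without uIRI library 1. In uIRI+MSC against sham, leaving out 1 library gave 3938 to 6914 genes against 7029, the lowest without sham library 1. With only 2 sham libraries, each of them decides many calls. Depth limits the precision for Itgad, with 0 counts in both sham libraries, and Itga11, with 2 in each. By library size alone, which moves the median of all genes to 0.73 in uIRI against sham (0.06 with TMM) and to 0.55 in uIRI+MSC against sham (0.03 with TMM), signs turned for Lama1 (0.33) and Lama3 (0.07) in uIRI against sham and for Itgb6 (0.3), Itgb8 (0.12) and Lama3 (0.32) in uIRI+MSC against sham, where none of the 3 had passed. Leaving out 1 library gave -0.2 to 0.43 for Itga6 and -0.3 to 0.97 for Itgav in uIRI against sham. For the second Itgam entry in uIRI+MSC against sham it gave -8.44 to 2.86, the lowest without uIRI+MSC library 1, and limma-voom gave -1.94. A replicate block left 29 members called in uIRI against sham, 23 in uIRI+MSC against sham and 0 in uIRI+MSC against uIRI. Shares from CPM in place of FPKM, without gene length, were 45.7% (uIRI) and 35.7% (sham) for Itgb1, 5.52% (uIRI+MSC) and 0.875% (sham) for Itgb2, 24.1%, 26.6% and 18.9% (uIRI+MSC, uIRI, sham) for Itgb5 and 14.4% (uIRI+MSC), 6.14% (uIRI) and 27.4% (sham) for Itgb8, since gene length no longer counts. For the other results named here the cause was not tested.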
